A study of Mus musculus with 48 samples.

Results

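The genes described here carry out glucose uptake, glycolysis, pyruvate oxidation, glycogen turnover and the export of reducing power from cytosolic NADH in mouse heart muscle. Of 55 listed genes, 41 were measured, out of 9811 genes measured in all. A gene counted as measured when a probe for it was detected, with 1 minus the deposited detection score under 0.05, on at least 6 of 48 arrays, and its brightest such probe was used. Of the 41 genes, 36 were detected on all 48 arrays. A further 7 genes had a probe that was detected on too few arrays (Slc16a1, Aldoc, Pgk1, Mpc1, Pdhx, Pgm2 and Gpd1l), and 7 had no named probe used here (Gpi1, Pfkfb1, G6pdx, Pgam1, Eno1, Mpc2 and Got1). The levels were read on Illumina mouse bead arrays, which report the brightness of a labelled RNA copy on a probe, with 1 array for each heart.

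The tissue was left ventricular myocardium of male C57BL/6 mice aged 8, 16, 32 or 48 weeks, with 6 hearts for each age and treatment. The mice were bought at 7 weeks of age and kept on a standard diet. Every heart was taken under pentobarbital, perfused in isolation by the Langendorff method, in which buffer enters through the aorta, and stabilised for 20 min. Hearts of the ischaemia and reperfusion groups (I/R) then had 25 min of global ischaemia at normal temperature and 45 min of aerobic reperfusion, and the normoxic groups were perfused with oxygenated buffer for a matched time. The isolated preparation has no circulating blood and all groups share it, so even the normoxic hearts are perfused hearts and not tissue taken directly from the animal. The question was how age changes these genes in normoxic hearts, how I/R changes them, and whether the I/R difference depends on age.

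The adult heart draws most of its ATP from fatty acids and uses glucose and lactate for the rest, and glycolysis and glycogen become its emergency supply when oxygen is short. Glucose enters through the transporters GLUT1 and the insulin-responsive GLUT4, is trapped by hexokinase and is committed to glycolysis by phosphofructokinase. Pyruvate is then either reduced to lactate or oxidised by the pyruvate dehydrogenase complex, which pyruvate dehydrogenase kinases switch off by phosphorylation and phosphatases switch on.

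The labelled tissue carried cardiomyocyte markers. All 12 cardiomyocyte markers were measured, and their summed linear level ran from 287533 to 341133 in normoxic and from 327082 to 349413 in I/R hearts. Of 4 atrial myocyte markers 3 were measured. Their sum ran from 4364 to 24919 in normoxic and from 2449 to 16196 in I/R hearts, and the share of atrial tissue was not tested. None of 4 neutrophil markers on the array was detected on enough arrays. Of the 10 listed skeletal muscle markers 3 were measured and 6 were not detected (Myh1, Myh2, Myh4, Tnnt3, Actn3 and Atp2a1). The RNA integrity number given in the labels averaged 8.50 ± 0.296 (SD, n = 24) in normoxic and 7.87 ± 0.296 (SD, n = 24) in I/R hearts. From the youngest to the oldest I/R group the mean integrity number was 8.08, 8.03, 7.75 and 7.60. Between 13362 and 15080 probes were detected in normoxic hearts and between 11072 and 13854 in I/R hearts. These measures moved with treatment, and in I/R hearts with age, so they stand beside every result on I/R. The labels give no slide or labelling batch, so a batch that followed treatment or age cannot be told apart from it. In whole tissue, fewer cells of a type and less RNA per cell cannot be told apart.

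In normoxic hearts few of these genes differed with age. Glycogen synthase 1, Gys1, the muscle enzyme that extends the glycogen chain, was the one of 41 that passed the test across all 4 ages, with lower levels at 32 and 48 weeks. Its log2 level ran from 9.48 to 10.02 with a median of 9.58 at 8 weeks, and from 9.46 to 9.87 with a median of 9.75 at 16 weeks. It ran from 9.13 to 9.36 with a median of 9.25 at 32 weeks, and from 9.03 to 9.49 with a median of 9.25 at 48 weeks. Every 32-week heart lay below every 8-week heart, while 1 of the 48-week hearts just overlapped the 8-week range. Against 8 weeks the difference was 0.04 at 16 weeks, -0.38 ± 0.118 (SE) at 32 weeks and -0.40 ± 0.118 (SE) at 48 weeks on the log2 scale. The adjusted p (limma with Benjamini-Hochberg adjustment over all genes) was 0.0187 for any difference among the ages, 0.0926 for 32 weeks alone and 0.0737 for 48 weeks alone. A dimmer second probe of Gys1, detected in 14 of 24 normoxic hearts, gave an adjusted p of 0.121 across ages, and centring each array on the median of all its probes gave 0.232 for the brightest probe.

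No member passed at 16, 32 or 48 weeks against 8 weeks in normoxic hearts by limma. Across all genes 0.0408%, 1.57% and 1.64% passed in the same comparisons, and 1.67% passed for any age, beside 1 of 41 members. Without adjustment, 2, 6 and 4 of 41 members had a p under 0.05 at 16, 32 and 48 weeks. In the same order 561, 1135 and 1009 of all 9811 genes did. The authors' processed values gave 3 members at 32 weeks and 1 at 48 weeks, beside 2.37% and 2.07% of all genes. Array weights gave 2 and 1, beside 4.16% and 3.66%. In simulated arrays, the 48-week comparison found 48% of changes of 0.5 log2 and 98% of changes of 1 log2. The members with the next smallest p across ages were Pfkfb3, an enzyme that makes the activator of phosphofructokinase, with a difference of 0.38 at 48 weeks (adjusted p = 0.523), and Slc2a4, which encodes GLUT4. Slc2a4 ran from 10.39 to 10.77 with a median of 10.66 at 8 weeks and from 10.82 to 11.03 with a median of 10.95 at 32 weeks. These ranges did not overlap, yet the difference of 0.31 had an adjusted p of 0.123, and at 48 weeks the range of 10.61 to 10.90 met that at 8 weeks. Of all genes, 0.805% lay wholly above and 1.14% wholly below at 32 weeks, beside Slc2a4 above and Gys1 below among the members. Got2, the mitochondrial aspartate aminotransferase of the malate-aspartate shuttle, differed by -0.18 at 32 weeks (adjusted p = 0.214), Pygb, brain-type glycogen phosphorylase, by 0.18, and Pdp1, a pyruvate dehydrogenase phosphatase, by 0.32. The 3 did not pass across ages (adjusted p = 0.514, 0.559 and 0.582).

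**Figure D1:**
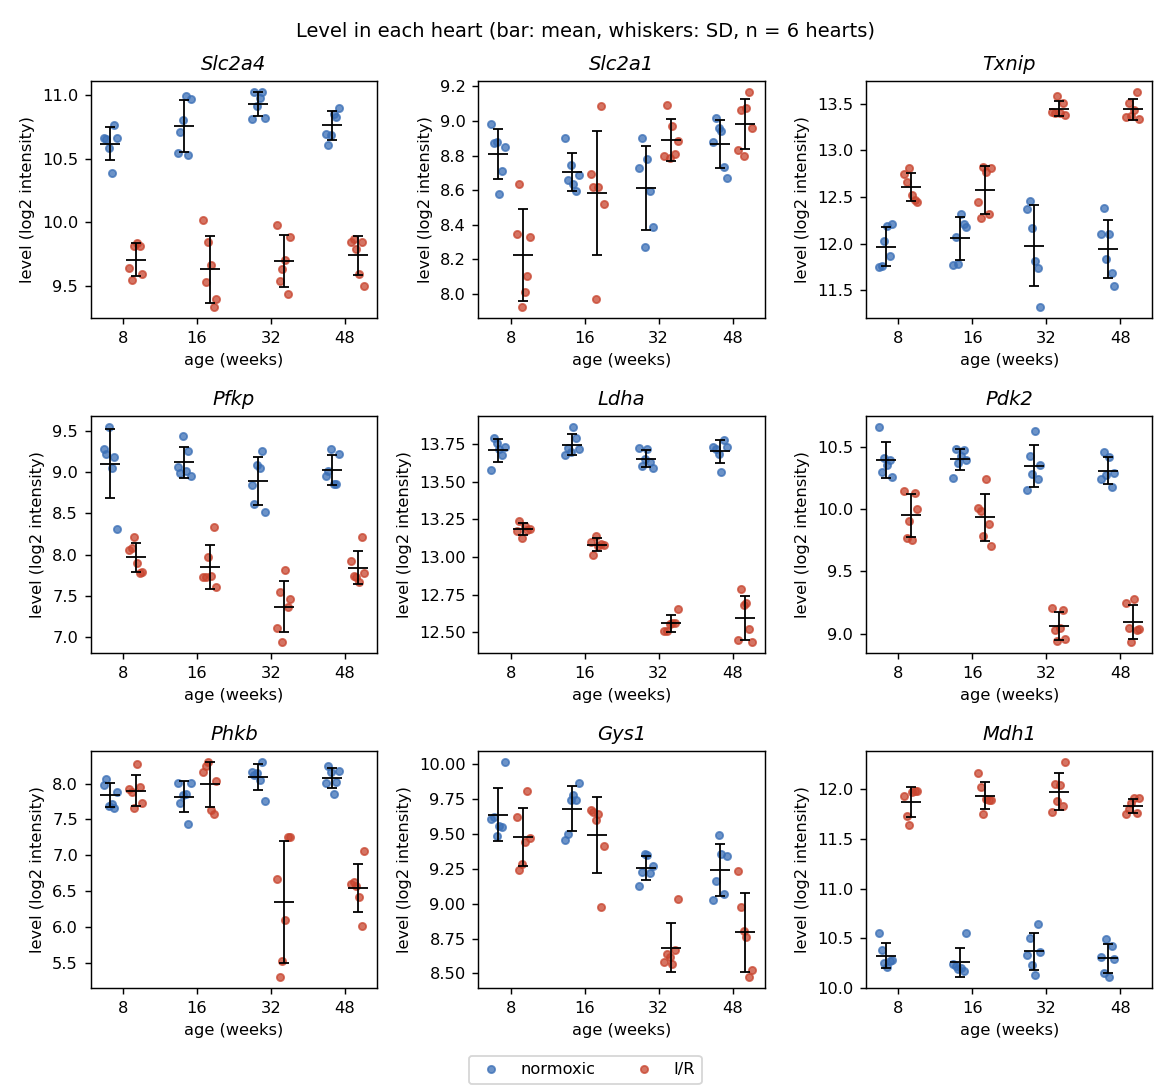
Log2 level (vertical axis) of 9 members in every heart by age in weeks (horizontal axis), normoxic in blue and I/R in red, with the mean as a bar and the SD as whiskers for 6 hearts. Among normoxic hearts Gys1 alone of all members passed across ages, while Ldha, Pdk2 and Phkb are lower and Txnip higher in I/R hearts of 32 and 48 weeks than of 8 and 16 weeks.

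I/R changed most members. Averaged over the 4 ages, 33 of 41 passed the test, 10 higher and 23 lower in I/R hearts, where 78.9% of all genes passed, 34.6% higher and 44.4% lower. The median difference was -0.23 over the members and -0.07 over all genes on the log2 scale, so the share that passed was near that of the genome while more members fell than rose. How the arrays are scaled bears on the rises: centring each array on the median of all its probes moved the median of all genes by -0.52, left 2 members higher (Mdh1 at 0.89 and Txnip at 0.38) and put 36 lower, whereas centring on the detected probes gave 13 higher and 25 lower. The same centring made falls larger, that of Slc2a4 going from -1.08 to -1.82, of Pfkp to -1.98, of Pdk2 to -1.60, of Pdk1 to -1.54, of Ldha to -1.46, of Hk1 to -1.35 and of Pdha1 to -1.31. With the RNA integrity number as a covariate 31 members passed, 10 higher and 21 lower, beside 62.7% of all genes. The share of all genes that passed was 87.7% with centring on all probes and 82.3% with centring on the detected probes. The hearts differed without overlap for 2 members above (Mdh1 and Gyg) and 5 below (Slc2a4, Ldha, Gapdh, Pdk1 and Pgm1), beside 5.96% and 4.71% of all genes. The fibroblast markers moved with I/R too, with 5 of 7 measured higher and 1 lower, and their summed level ran from 12919 to 17601 in normoxic and from 13497 to 19630 in I/R hearts. Of 10 endothelial markers 7 were lower and 2 higher, and their sum ran from 12293 to 16271 in normoxic and from 11669 to 17991 in I/R hearts. The 12 cardiomyocyte markers split into 6 higher and 6 lower. Of 6 smooth muscle or pericyte markers 2 were higher and 4 lower, and of 6 macrophage or monocyte markers 3 were higher and 2 lower. The part of these cell types in the members' differences was not tested.

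**Figure D2:**
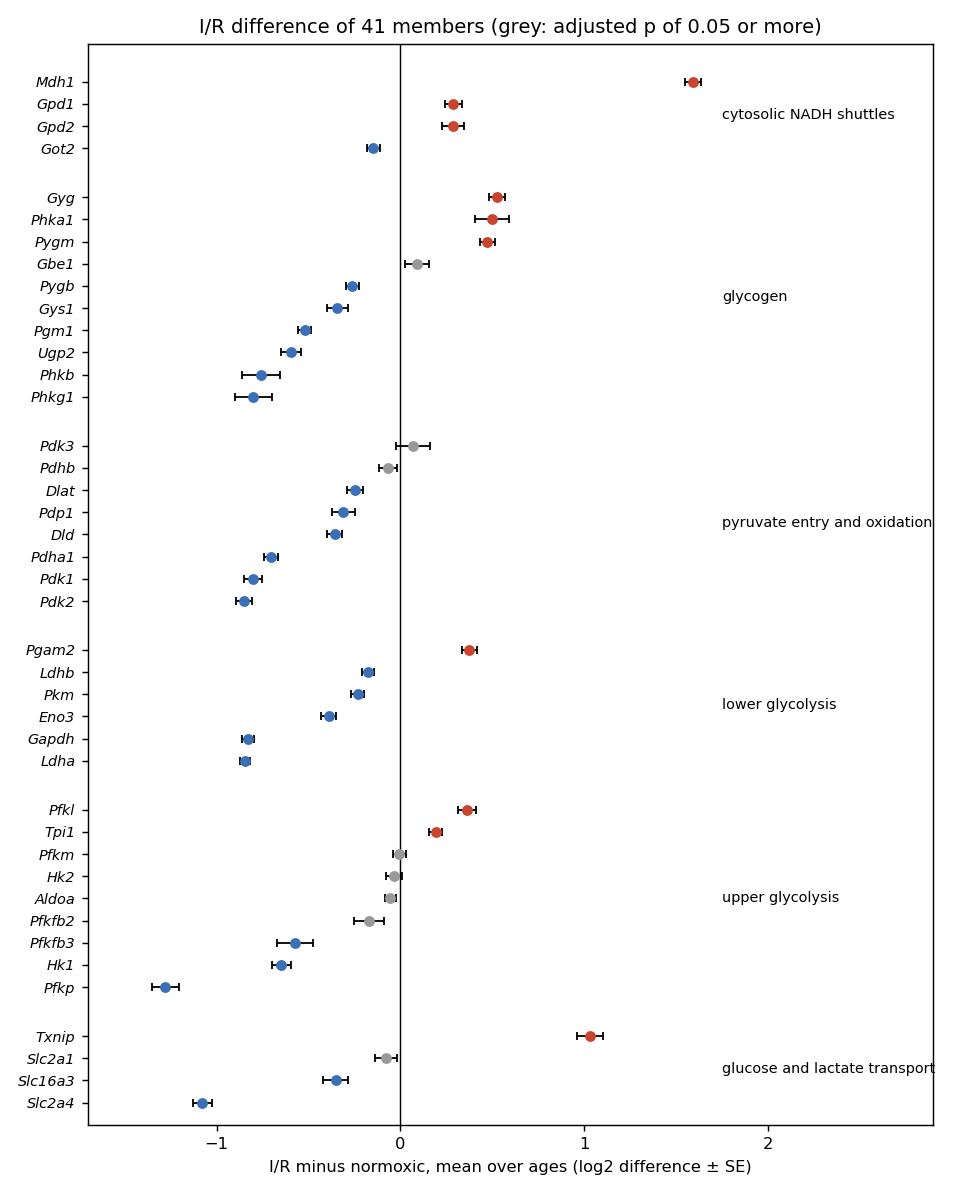
Mean I/R minus normoxic difference over the 4 ages (horizontal axis, log2 with SE) of 41 members grouped by role (vertical axis), red higher, blue lower and grey not past an adjusted p of 0.05. Mdh1 (1.59) and Pfkp (-1.28) stand at the ends, and under centring on all probes of an array 8 of the 10 red members turn negative.

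The genes of glucose and lactate transport did not move alike. Slc2a4 (GLUT4) had a log2 level of 10.39 to 11.03 in the 24 normoxic and 9.33 to 10.02 in the 24 I/R hearts, so that every I/R heart lay below every normoxic one. It fell by 1.08 ± 0.0507 (SE) on the log2 scale, a 2.11-fold lower level (adjusted p = 1.48e-23), and the fall passed at each age. Txnip, an arrestin-like protein that pulls glucose transporters from the cell surface, rose by 1.03 ± 0.0702 (adjusted p = 9.67e-18). Slc2a1 (GLUT1) did not pass on average, at -0.08 (adjusted p = 0.234), and its course with age is described further on. Slc16a3, the lactate exporter MCT4, passed as lower (adjusted p = 1.09e-05), but it was detected in 8 of 24 normoxic and 0 of 24 I/R hearts, so its I/R level is only bounded and no fold can be given. Of the 4 measured members of this role, 1 rose, 2 fell and 1 did not pass.

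In upper glycolysis 2 members rose, 3 fell and 4 did not pass. Pfkp, the platelet isoform of phosphofructokinase, had a log2 level of 8.31 to 9.55 (median 9.05) in normoxic and 6.94 to 8.34 (median 7.76) in I/R hearts, with the ranges touching at a single normoxic heart of low level. It fell by 1.28 ± 0.0753, 2.42-fold (adjusted p = 6.08e-20), while Pfkl, the liver isoform, rose by 0.36 ± 0.0483 (adjusted p = 5.96e-09). Pfkm, the muscle isoform, had a difference of -0.01 (adjusted p = 0.902) on its brightest probe. Hk1, a hexokinase bound to mitochondria, fell by 0.65 ± 0.0514 (adjusted p = 1.84e-15), and Hk2, the insulin-responsive hexokinase, had a difference of -0.04 (adjusted p = 0.464). Pfkfb3 fell by 0.57 ± 0.0986 (adjusted p = 1.25e-06), and Pfkfb2, the heart isoform of the same enzyme, had a difference of -0.17 (adjusted p = 0.0535). Tpi1, triose phosphate isomerase, rose by 0.19 ± 0.0364 (adjusted p = 7.65e-06), and Aldoa, muscle aldolase, had a difference of -0.05 (adjusted p = 0.0875). The 2 rises turn into falls when arrays are centred on all probes (Pfkl -0.34, Tpi1 -0.42).

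All 6 measured members of lower glycolysis passed, 5 lower and 1 higher. Ldha, the lactate dehydrogenase subunit that dominates in muscle, ran from 13.56 to 13.86 over the normoxic groups and from 12.43 to 13.24 over the I/R groups, and it fell by 0.85 ± 0.0282 (adjusted p = 3.58e-29). Gapdh, glyceraldehyde-3-phosphate dehydrogenase, ran from 15.41 to 15.80 in normoxic and from 14.56 to 15.03 in I/R hearts, and it fell by 0.83 ± 0.0322 (adjusted p = 1.07e-26). Neither gene's I/R hearts met its normoxic hearts. The Gapdh difference was smaller under other scalings, at -0.27 when arrays were centred on their detected probes and -0.49 in the authors' values. Eno3, muscle enolase, fell by 0.39 ± 0.042, Pkm, pyruvate kinase, by 0.23 ± 0.036 (adjusted p = 1.76e-07), and Ldhb, the heart-type lactate dehydrogenase subunit, by 0.18 (adjusted p = 1.36e-06). Pgam2, muscle phosphoglycerate mutase, rose by 0.38 ± 0.0394 (adjusted p = 9.33e-12) and had a difference of -0.19 when arrays were centred on all probes.

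At the entry of pyruvate into the mitochondrion 6 members fell, none rose and 2 did not pass. The falls took in both sides of the switch. Pdk2 and Pdk1, kinases that switch the pyruvate dehydrogenase complex off, fell by 0.85 ± 0.0437 (adjusted p = 3.79e-22) and 0.80 ± 0.0478 (adjusted p = 8.97e-20). Pdk1 ran from 9.32 to 10.05 in normoxic and from 8.30 to 9.21 in I/R hearts, with no overlap. Pdha1, the catalytic E1 alpha subunit that these kinases phosphorylate, fell by 0.70 ± 0.0378 (adjusted p = 2.08e-21), Dlat, the E2 subunit, by 0.25, and the phosphatase Pdp1 by 0.31 ± 0.0624 (adjusted p = 2e-05). With the RNA integrity number as a covariate Pdp1 no longer passed (-0.12, adjusted p = 0.317), and it had -0.19 without background correction. Dld, the E3 subunit, had a difference of -0.36 ± 0.0408 on its brightest probe (adjusted p = 1.17e-10) and the opposite on its second. Pdhb, the E1 beta subunit, did not pass at -0.07 (adjusted p = 0.208), nor did the kinase Pdk3 at 0.07 (adjusted p = 0.492).

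Of 10 measured glycogen genes, 3 rose, 6 fell and 1 did not pass. Gyg, glycogenin, the protein primer on which a glycogen particle is built, had a log2 level of 8.57 to 9.07 (median 8.86) in normoxic and 9.15 to 9.88 (median 9.34) in I/R hearts and rose by 0.53 ± 0.0438 (adjusted p = 8.89e-15). Pygm, muscle glycogen phosphorylase, ran from 9.30 to 9.86 in normoxic and from 9.77 to 10.26 in I/R hearts and rose by 0.47 ± 0.0406 (adjusted p = 2.17e-14). The groups met for Pygm and not for Gyg, and both rises turn into falls when arrays are centred on all probes (Gyg -0.20, Pygm -0.27). The authors' values gave 0.34 for Gyg. The subunits of phosphorylase kinase, which activates glycogen phosphorylase, did not move alike. Phkg1, the muscle catalytic subunit, fell by 0.80 ± 0.0997 (adjusted p = 1.07e-09) and Phkb, the beta subunit, by 0.76 ± 0.104 (adjusted p = 1.06e-08), while Phka1, the muscle alpha subunit, rose by 0.50 ± 0.0944 (adjusted p = 7.12e-06) and had a difference of -0.04 under centring on all probes. Without background correction the differences of these 3 dim probes were -0.47, -0.39 and 0.26, and in the authors' values -0.42, -0.34 and 0.21. Pgm1, phosphoglucomutase, fell by 0.52 ± 0.036 (adjusted p = 1.87e-17), from 13.02 to 13.43 in normoxic hearts to 12.38 to 12.91 in I/R hearts. Ugp2, which makes the UDP-glucose that glycogen synthase uses, fell by 0.59 ± 0.054 (adjusted p = 1.4e-13), Gys1 by 0.34 ± 0.0591 (adjusted p = 1.38e-06) and Pygb by 0.26. Gbe1, the branching enzyme, was detected in 9 of 24 normoxic and 7 of 24 I/R hearts and did not pass at 0.09 (adjusted p = 0.209).

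Among the NADH shuttles 3 members rose and 1 fell. Mdh1, cytosolic malate dehydrogenase of the malate-aspartate shuttle, had the largest difference of the 41. It ran from 10.11 to 10.65 (median 10.28) in normoxic and from 11.64 to 12.28 (median 11.90) in I/R hearts, a rise of 1.59 ± 0.0448 or 3.02-fold (adjusted p = 6.94e-32). Every I/R heart lay more than the whole normoxic range above the normoxic hearts, and the difference was 1.55, 1.68, 1.61 and 1.54 at 8, 16, 32 and 48 weeks. Gpd1 and Gpd2, the cytosolic and mitochondrial enzymes of the glycerol phosphate shuttle, each rose by 0.29 (SE 0.0452 and 0.0595, adjusted p = 2.01e-07 and 3.11e-05), and each fell when arrays were centred on all probes (-0.39 and -0.42). Gpd2 had 0.18 without background correction and 0.10 in the authors' values. Got2 fell by 0.15 (adjusted p = 0.000188) and did not pass with the RNA integrity number as a covariate (-0.12, adjusted p = 0.0852).

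Different probes of one gene did not always move alike. A second detected probe existed for 15 members, and for 12 of these both probes passed for the mean I/R difference. The direction was shared in 7 and opposite in 5, while over all genes 43.2% of pairs in which both passed were opposite. Probes of a gene can read different transcript ends or isoforms, and no probe sequence was used here to tell them apart. Mdh1 rose on both probes (1.59 and 2.43, the second detected in 9 of 24 normoxic hearts), as did Gyg (0.53 and 1.77) and Phka1 (0.50 and 0.59, the second detected in 7 of 24 normoxic and 16 of 24 I/R hearts). Pfkp fell on both (-1.28 and -1.57, the second probe detected in 3 of 24 I/R hearts), as did Hk1 (-0.65 and -0.47), Got2 (-0.15 and -0.89) and Gys1 (-0.34). The second Gys1 probe was detected in 14 of 24 normoxic and no I/R heart, so it gives a direction and no fold. A further, dimmer Hk1 probe, detected in 9 of 24 normoxic and 12 of 24 I/R hearts, went the other way (0.26, adjusted p = 0.0281). The opposite pairs were Dld (-0.36 and 2.65), Gapdh (-0.83 and 0.09), Ldhb (-0.18 and 0.36), Pdp1 (-0.31 and 0.36) and Tpi1 (0.19 and -0.41). The second probe of Pdp1 was detected in only 3 of 24 normoxic and 11 of 24 I/R hearts and that of Ldhb in 15 and 18, so these values rest in part on hearts at background. For Dld and Gapdh both probes were detected in all hearts, and for Tpi1 in all but 1. In the remaining 3 a single probe passed or none did: Pfkm had -0.01 and -1.03, Pdhb -0.07 and 0.32, and Pfkfb2 -0.17 and -0.11.

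**Figure D3:**
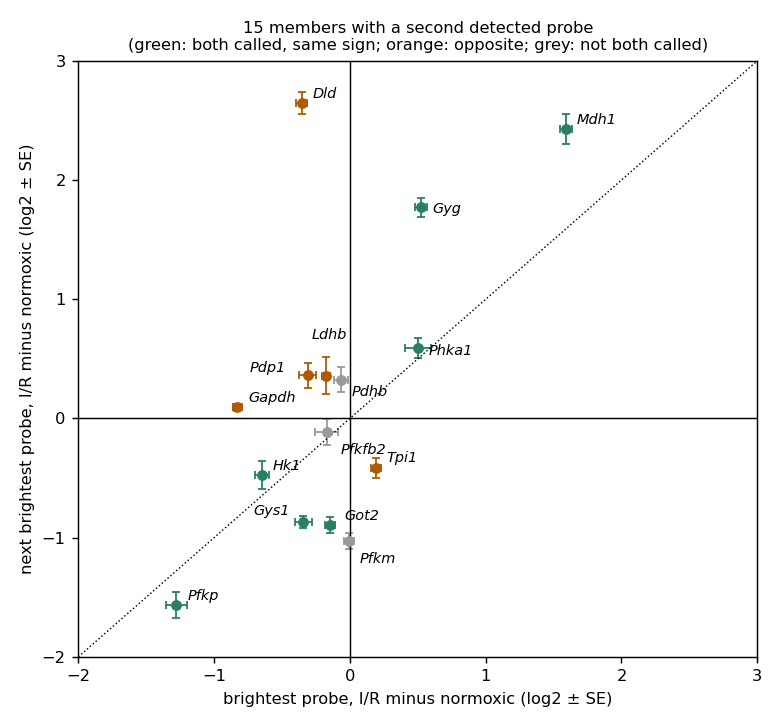
Mean I/R minus normoxic difference (log2 with SE) on the brightest probe (horizontal axis) and on the next brightest probe (vertical axis) of 15 members, with a dotted line where both are equal. Green points (7) passed on both probes in one direction, orange points (5) passed in opposite directions, and Dld lies farthest from the line.

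The I/R difference held its direction at every age for many members. At 8 weeks 28 of 41 passed (8 higher, 20 lower), beside 52.9% of all genes (22.3% higher, 30.6% lower). At 16 weeks 26 passed (8 and 18), beside 54.3% (22.3% and 32%). At 32 weeks 33 passed (10 and 23), beside 65.6% (27.6% and 38%), and at 48 weeks 30 passed (10 and 20), beside 63.4% (29.2% and 34.2%). In each of the 4 comparisons a larger share of members than of all genes was lower. At 16 weeks the count dropped to 17 (4 higher, 13 lower) with the RNA integrity number as a covariate, beside 43.4% of all genes. A set of 17 members passed in one direction at all 4 ages, beside 33.6% of all genes (14.1% higher, 19.6% lower). The 5 that were higher were Gyg, Mdh1, Pgam2, Pygm and Txnip, and the 12 that were lower were Dld, Eno3, Gapdh, Hk1, Ldha, Pdha1, Pdk1, Pdk2, Pfkp, Pgm1, Slc2a4 and Ugp2.

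The size of the I/R difference depended on age for 21 of 41 members, beside 29.2% of all genes. The limma test took the 3 differences from the response at 8 weeks. Members were brighter, with a median log2 level of 10.75 beside 7.38 over all genes. Among genes detected on at least 24 arrays, 21 of 39 members passed, beside 35.8% of genes. Ldha had the smallest p (adjusted p = 3.21e-08). Its difference, in order of age, was -0.52, -0.66, -1.09 and -1.11. Pdk2 followed (adjusted p = 4e-08), with -0.45, -0.47, -1.28 and -1.21 in the same order. For both genes the difference at 32 and 48 weeks was larger than at 8 and 16 weeks, and the normoxic hearts had no age difference that passed.

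**Figure D4:**
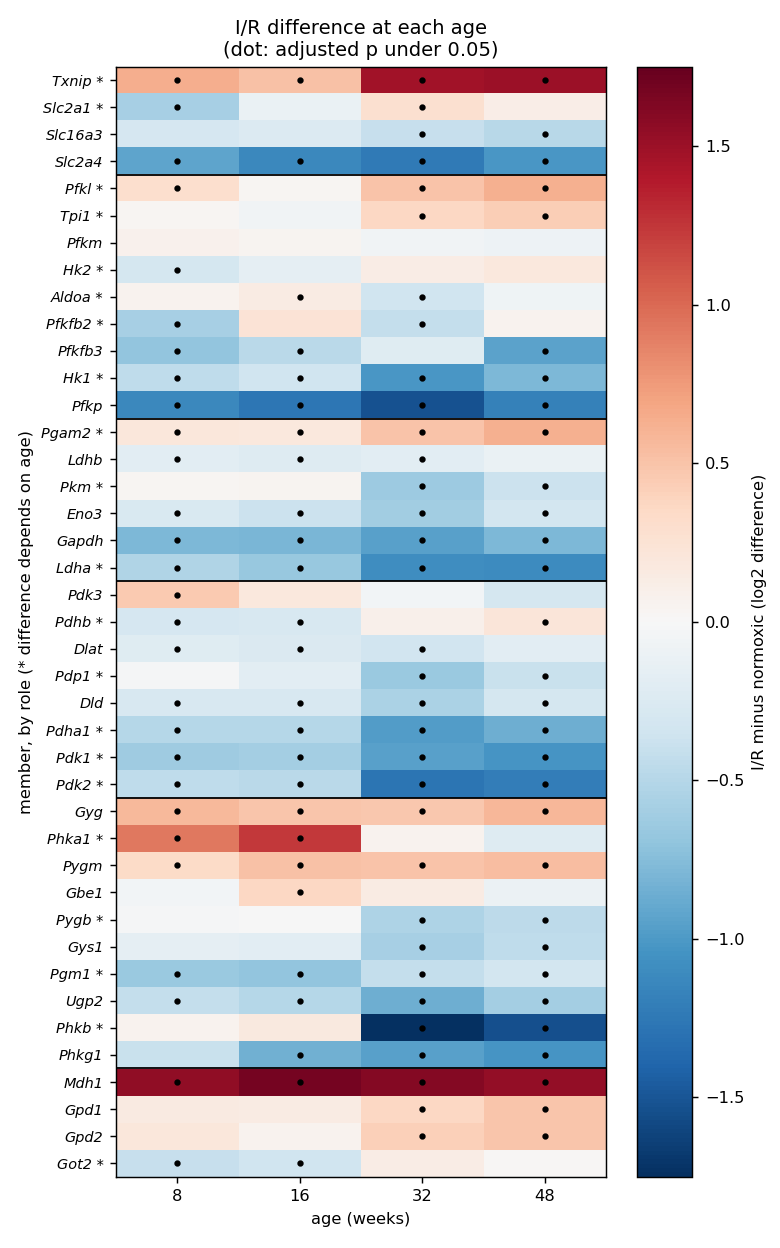
I/R minus normoxic difference (colour, log2, red higher and blue lower) of 41 members (vertical axis) at 8, 16, 32 and 48 weeks (horizontal axis), with a dot where the adjusted p was under 0.05 and a star beside the 21 members whose difference depended on age. Phkb goes from 0.07 and 0.18 to -1.74 and -1.53, and Phka1 from 0.92 and 1.24 to 0.06 and -0.22.

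The phosphorylase kinase subunits Phkb and Phka1 swung between ages on their brightest probes, while Phkg1 did not pass the test of dependence on age. Phkb (adjusted p = 1.9e-07) had an I/R difference of 0.07 at 8 weeks and 0.18 at 16 weeks, neither of which passed, then -1.74 at 32 weeks and -1.53 at 48 weeks. Its log2 level ran from 7.66 to 8.27 in I/R hearts of 8 weeks and from 7.57 to 8.31 at 16 weeks, but from 5.30 to 7.26 at 32 weeks and from 6.02 to 7.05 at 48 weeks. None of the older I/R hearts reached the younger ones, and the probe was detected in 4 of 6 hearts at 32 weeks and 5 of 6 at 48 weeks. Phka1 (adjusted p = 4.69e-05) had a difference of 0.92 and 1.24 at 8 and 16 weeks and of 0.06 and -0.22 at 32 and 48 weeks, the latter pair not passing. The largest change from the response at 8 weeks was -1.81 for Phkb and -1.15 for Phka1. It was smaller without background correction (-0.93 and -0.53) and in the authors' values (-0.72 and -0.38). On the second Phka1 probe it was 0.16 and did not pass (adjusted p = 0.931).

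The others with the smallest p moved in both directions. Pkm (adjusted p = 7.49e-07) differed by 0.03 and 0.05 at 8 and 16 weeks and by -0.63 and -0.38 at 32 and 48 weeks. Pygb (adjusted p = 3.29e-05) went from -0.03 and -0.01 to -0.54 and -0.46. Txnip (adjusted p = 3.4e-05) went from 0.64 and 0.52 to 1.47 and 1.50, and Got2 (adjusted p = 2.31e-05) from -0.40 and -0.35 to 0.14 and 0.02 on its brightest probe. Slc2a1 went from -0.59 at 8 weeks and -0.12 at 16 weeks to 0.28 and 0.12 at 32 and 48 weeks (adjusted p = 0.000499), and Hk2 from -0.30 and -0.15 to 0.13 and 0.19 (adjusted p = 0.00459). Slc2a4 and Mdh1, with 2 of the largest mean differences, were not among the 21, but the second Mdh1 probe, detected in 9 of 24 normoxic and all 24 I/R hearts, did pass (adjusted p = 0.00494). Of the 21, a second probe existed for 7 (Got2, Hk1, Pdhb, Pdp1, Pfkfb2, Phka1 and Tpi1), and it passed for none of them (adjusted p from 0.192 for Pdhb to 0.931 for Phka1), although the dimmest Hk1 probe did pass (adjusted p = 0.000196). The second probe of Dld passed (adjusted p = 0.00652) where the brightest did not.

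Among I/R hearts alone, 27 of 41 members differed between 48 and 8 weeks, 14 higher and 13 lower, beside 39.3% of all genes, 18.6% higher and 20.7% lower. These hearts are the same I/R hearts as in the test of dependence on age, so the counts are not separate evidence. With the RNA integrity number as a covariate 23 passed (10 higher, 13 lower), beside 3179 of all 9811 genes (3855 without it). With centring on all probes 24 members passed (5 higher, 19 lower), beside 3757 of all genes. By any age, 28 passed beside 52.7%. Among genes detected on at least 24 arrays, 27 of 39 members passed for 48 against 8 weeks, beside 46.0% of genes. Between 48 and 8 weeks 11 members lay wholly above and 10 wholly below, beside 8.8% and 9.49% of all genes. The largest rises were of Txnip, Slc2a1, Hk2 and Pfkl, and the largest falls of Phkb, Phka1, Pdk3 and Pdk2.

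Txnip ran from 12.44 to 12.81 (median 12.59) in I/R hearts of 8 weeks and from 13.34 to 13.63 (median 13.40) at 48 weeks, without overlap. It rose by 0.83 ± 0.14 (SE; adjusted p = 6.21e-06). Slc2a1 ran from 7.92 to 8.64 (median 8.22) at 8 weeks and from 8.80 to 9.17 (median 9.01) at 48 weeks, again without overlap, and rose by 0.76 ± 0.12 (adjusted p = 2.12e-06), or by 0.47 with centring on all probes and 0.48 in the authors' values. Hk2 rose by 0.48 ± 0.0879 (adjusted p = 1.96e-05), from 12.38 to 12.71 up to 12.94 to 13.18, and had 0.24 (adjusted p = 0.0584) when arrays were centred on all probes. Pfkl rose by 0.48 ± 0.0967 (adjusted p = 8.51e-05), or by 0.29 with centring on all probes.

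Phkb fell by 1.35 ± 0.207 between 8 and 48 weeks in I/R hearts (adjusted p = 1.14e-06), and by 0.71 without background correction and 0.52 in the authors' values. Phka1 fell by 0.99 ± 0.189 (adjusted p = 4.17e-05), from 7.11 to 7.71 at 8 weeks to 5.85 to 6.99 at 48 weeks, where it was detected in 4 of 6 hearts, and by 0.46 and 0.33 in these alternatives. Its second probe had a difference of 0.14 (adjusted p = 0.567). Pdk3 was detected in none of 6 I/R hearts at 48 weeks, so its level there is only bounded, at least 1.39-fold lower than at 8 weeks (adjusted p = 5.68e-05 for the measured difference of -0.94, which was -0.36 without background correction and -0.26 in the authors' values). Pdk2 ran from 9.75 to 10.15 (median 9.95) at 8 weeks and from 8.93 to 9.28 (median 9.04) at 48 weeks, without overlap, and fell by 0.85 ± 0.0874 (adjusted p = 1.77e-10). Ldha ran from 13.12 to 13.24 at 8 weeks and from 12.43 to 12.79 at 48 weeks and fell by 0.59 (adjusted p = 2.62e-11).

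The steps between neighbouring ages, a comparison added after the data had been seen, placed most of this between 16 and 32 weeks. No member passed from 8 to 16 weeks, beside 1.73% of all genes, and 29 passed from 16 to 32 weeks, 19 of them lower, beside 36.9%, with 20.4% lower. From 32 to 48 weeks 2 passed, Aldoa (0.20, adjusted p = 0.0315) and Pfkp (0.47, adjusted p = 0.0449), beside 7.19%. Between 16 and 32 weeks 5 members lay wholly higher and 10 wholly lower, beside 6.9% and 7.42% of all genes. By role, 4 of 9 measured members of upper glycolysis, 4 of 6 of lower glycolysis, 5 of 8 of pyruvate oxidation and 6 of 10 of glycogen turnover were lower at 32 than at 16 weeks. The falls took in Phkb (-1.64, adjusted p = 3.5e-08), Pdk2 (-0.87, adjusted p = 1.73e-10), Gys1 (-0.81, adjusted p = 6.06e-07) and Ldha (-0.52, adjusted p = 1.03e-09), and the rises Txnip (0.87, adjusted p = 3.38e-06). For none of the 15 members with a second probe did both probes pass at this step, beside 316 of all 2813 genes with one. With centring on all probes 21 passed, 18 of them lower, beside 31.6% of all genes. Among genes detected on at least 24 arrays, 28 of 39 members passed from 16 to 32 weeks, beside 44.2% of genes.

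**Figure D5:**
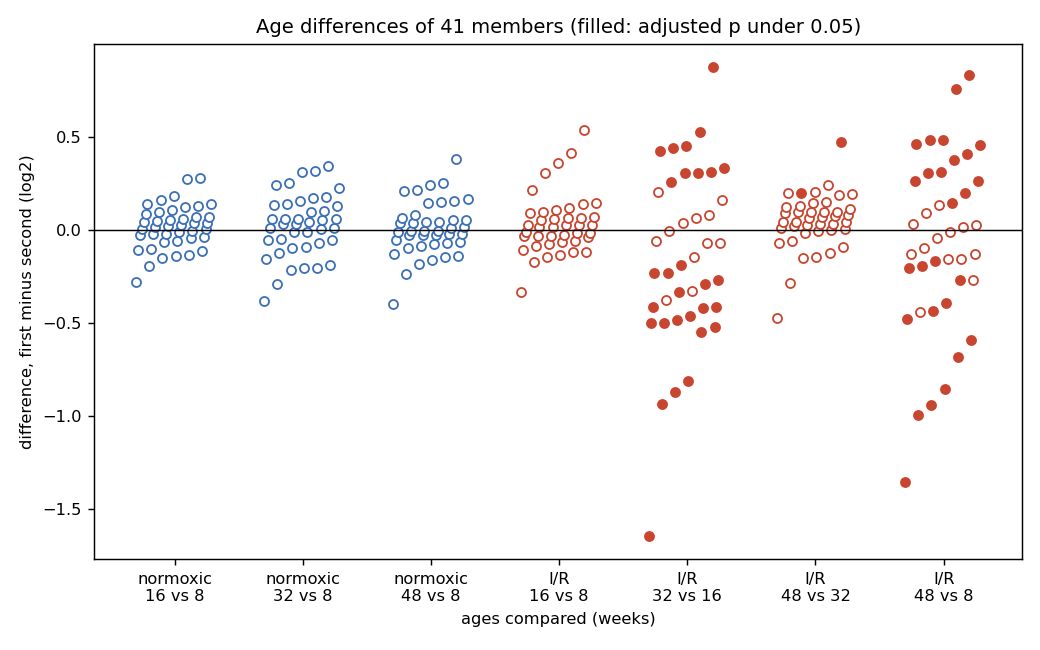
Age difference (vertical axis, log2) of 41 members, one point each, in 7 comparisons of ages in normoxic or I/R hearts (horizontal axis), filled where the adjusted p was under 0.05. The filled points lie in I/R hearts, in 48 against 8 weeks (27 members) and 32 against 16 weeks (29 members), with 2 in 48 against 32 weeks.

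Other measures of these I/R hearts also differed with age, not all at the same step. The skeletal muscle list, of which 3 markers were measured, had a summed level of 12491 to 15084 at 8 weeks, 10986 to 14106 at 16 weeks, 6263 to 8032 at 32 weeks and 7893 to 9367 at 48 weeks. In normoxic hearts the same sum ran from 8355 to 12511. With Myh1, Myh2, Myh4, Tnnt3, Actn3 and Atp2a1 of this list not detected, the sum is no measure of skeletal muscle content. Of the 10 endothelial markers 3 were already lower at 16 than at 8 weeks, and 3 were lower and 3 higher at 32 than at 16 weeks. Between 48 and 8 weeks in I/R hearts 5 endothelial markers fell and 1 rose, and 3 fibroblast and 3 smooth muscle or pericyte markers fell with none rising, of 7 and 6. Of the 12 cardiomyocyte markers 1 fell and none rose. Between 13099 and 13854 probes were detected in I/R hearts at 8 weeks, 12433 to 13369 at 16 weeks, 11157 to 13662 at 32 weeks and 11072 to 12396 at 48 weeks, so the 16-week range lay within that at 32 weeks. The part of these measures in the members' steps was not tested.

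Promoter sequence is shown for the 2 members with the smallest p for dependence on age, Ldha and Pdk2, and for the 2 with the largest rises between 48 and 8 weeks in I/R hearts, Txnip and Slc2a1, because Ldha and Slc2a1 are textbook targets of the hypoxia-inducible factors and Txnip of glucose-sensing factors. Each line gives the 250 bases before the transcript start on the gene's own strand, from RefSeq in build GRCm38.p6, with ACGTG, the core of the hypoxia response element, in capitals on either strand, including the E-box CACGTG, which holds ACGTG on both strands.
Ldha, chr7:46845554-46845803, plus strand: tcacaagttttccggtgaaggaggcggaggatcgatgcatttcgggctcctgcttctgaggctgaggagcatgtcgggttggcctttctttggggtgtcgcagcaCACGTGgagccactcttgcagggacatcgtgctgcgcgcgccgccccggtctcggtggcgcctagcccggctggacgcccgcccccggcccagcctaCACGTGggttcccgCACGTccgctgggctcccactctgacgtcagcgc
Pdk2, chr11:95041372-95041621, minus strand: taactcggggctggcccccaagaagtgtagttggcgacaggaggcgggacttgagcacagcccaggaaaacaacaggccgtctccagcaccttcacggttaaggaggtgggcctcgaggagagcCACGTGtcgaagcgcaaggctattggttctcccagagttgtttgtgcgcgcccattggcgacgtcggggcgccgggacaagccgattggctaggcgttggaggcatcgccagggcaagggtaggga
Txnip, chr3:96557707-96557956, plus strand: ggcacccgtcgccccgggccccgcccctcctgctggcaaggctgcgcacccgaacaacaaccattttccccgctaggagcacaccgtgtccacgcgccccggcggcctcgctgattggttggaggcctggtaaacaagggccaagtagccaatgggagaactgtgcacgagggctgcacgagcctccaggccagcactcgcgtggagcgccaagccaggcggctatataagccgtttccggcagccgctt
Slc2a1, chr4:119108495-119108744, plus strand: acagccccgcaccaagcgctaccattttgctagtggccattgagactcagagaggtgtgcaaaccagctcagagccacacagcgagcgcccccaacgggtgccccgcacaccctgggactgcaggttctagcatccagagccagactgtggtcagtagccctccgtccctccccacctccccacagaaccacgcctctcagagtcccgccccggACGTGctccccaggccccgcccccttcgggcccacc
Ldha held 5 matches of ACGTG, of which 4 belong to 2 copies of CACGTG. Pdk2 held 2, both from 1 copy of CACGTG, Slc2a1 held 1, and Txnip held none in this window. No other sequence was searched for, so sites of glucose-sensing factors that lack ACGTG would not be marked. Another listed start of Ldha and of Pdk2 held none. Over the 53 promoters of 38 measured members, from 250 bases before to 50 after the start, 25 (47.2%) held ACGTG and 6 (11.3%) held CACGTG, beside 19.6% and 7.15% of all 32851 promoters in the table. Ldha and Pdk2, with matches, had lower levels at 48 weeks in I/R hearts, and Slc2a1, with a match, a higher one, so members with a match lay on both sides. A match is a stretch of letters, and binding was not measured.

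The neighbouring pathways were described from wider lists by their counts, with no list test. Of their 78 measured genes 62 passed for the mean I/R difference, beside 78.9% of all genes (34.6% higher, 44.4% lower), the background for the counts of each list. Of 27 further genes of glycolysis and sugar transport 14 were measured, and 7 rose and 5 fell with I/R. Slc2a8, a glucose transporter of internal membranes, fell by 1.03 (detected in 13 of 24 I/R hearts), Galm, aldose mutarotase, by 0.71, and Ldhd, D-lactate dehydrogenase, by 0.43 on its brightest and 1.30 on its second probe. Galt, of galactose metabolism, had 0.57 on its brightest and -0.81 on its second probe. Of 13 genes around pyruvate dehydrogenase 8 were measured, with 2 higher and 4 lower, among them Pdpr, a regulator of the pyruvate dehydrogenase phosphatase, at -0.63, Dlst, of the 2-oxoglutarate dehydrogenase complex, at -0.91 (-0.21 on its second probe), and Lias, which makes lipoic acid, at 0.42 (2.08 on its second probe). Me3, a mitochondrial malic enzyme, passed as higher but was detected in 1 of 24 normoxic and 9 of 24 I/R hearts.

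Of 22 further glycogen genes 18 were measured, with 3 higher and 8 lower. Prkag1, a subunit of the AMP-activated kinase, fell by 0.92, and Ppp1ca, the catalytic subunit of protein phosphatase 1, by 0.51 (-0.72 on its second probe). Nhlrc1, the ubiquitin ligase malin, which acts on glycogen proteins, rose by 0.97. Gsk3b, the kinase that inhibits glycogen synthase, had -0.87 on its brightest and 0.24 on its second probe. In normoxic hearts 1 of the 78 listed genes passed at 48 against 8 weeks, beside 1.64% of all genes, namely Ppp1ca, which fell by 0.29 (adjusted p = 0.0201). At 32 against 8 weeks 1 passed, beside 1.57%, namely Gaa, the lysosomal glycogen-degrading glucosidase, which rose by 0.30 (adjusted p = 0.0267). In I/R hearts 8 of the 18 glycogen genes were lower and 2 higher at 48 than at 8 weeks, beside 20.7% and 18.6% of all genes.

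A list of further shuttle and related genes held Mdh2, Slc25a10, Slc25a11, Slc25a12, Slc25a13, Gpt and Gpt2. All 7 were measured, with 3 higher and 4 lower under I/R. Mdh2, mitochondrial malate dehydrogenase, rose by 3.16 and Slc25a13, the aspartate-glutamate carrier citrin, by 2.00, each read by 1 probe. Slc25a12, the other aspartate-glutamate carrier, fell by 0.59, and Slc25a11, the malate carrier, had -0.95 on its brightest and 0.17 on its second probe. Together with Mdh1, both malate dehydrogenases of the shuttle were thus higher while 1 of its 2 aspartate-glutamate carriers was higher and 1 lower. Of 14 genes of the pentose phosphate and hexosamine pathways 11 were measured, with 4 higher and 4 lower. Pgls, a pentose phosphate lactonase, rose by 0.60 (0.19 on its second probe) and H6pd by 0.35, while Ogt and Oga, which add and remove O-linked N-acetylglucosamine, had -0.94 and -0.73 on the brightest and 0.55 and 0.54 on the second probes, that of Oga detected in 1 of 24 normoxic and 8 of 24 I/R hearts.

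Of 28 regulators of glucose use 20 were measured, with 7 higher and 11 lower under I/R (34.6% and 44.4% of all genes), and 1 higher and 9 lower in I/R hearts at 48 than at 8 weeks (18.6% and 20.7% of all genes). Trib3, a pseudokinase that binds AKT, fell by 2.68 and was detected in 4 of 24 I/R hearts. Its second probe, detected in every normoxic and no I/R heart, was at least 1.47-fold lower. Klf15, a transcription factor that activates Slc2a4, rose by 1.22, whereas Slc2a4 itself fell. Arnt, the partner of the hypoxia-inducible factors, had -0.90 on its brightest and 1.78 on its second probe, and Akt2, the kinase through which insulin moves GLUT4 to the surface, had 0.56 on its brightest probe, while its second was detected in 7 of 24 normoxic and no I/R heart.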

How the data were processed

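RNA of 48 hearts, 1 Illumina mouse bead array each, was analysed in 8 groups of 6. Per the labels' protocols, RNA was extracted with Trizol and RNeasy columns, its integrity was read on a Bioanalyzer, and an Ambion TotalPrep kit labelled the cRNA with biotin. The deposited intensity of each probe is the scanner's summary signal before normalization between arrays. The deposited detection score, a fraction, was read as 1 minus the detection p-value, because it rose with the signal (lowest rank correlation on an array 0.995). The authors' processed values are on a log2 scale, were not centred by gene and run in the direction of the signal (slope against it 0.951 to 1.04), with column medians of 7.812 to 7.83. How they were normalized is not known; lumi is named, without a version, per the submitters' processing notes, and those values served as an alternative.

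Signals of 46624 probes were background-corrected by normexp with the detection p-values (offset 16), quantile normalized and put on the log2 scale in limma 3.58.1 under R 4.3.3. Probes detected at p under 0.05 on at least 6 arrays were kept (17624). Symbols came from the platform annotation (29971 probes with 1 symbol, 10 with several, 16643 with none) and 29916 were updated through Entrez IDs to RefSeq's names. The brightest probe stood for each of 9811 genes, 2813 of which had a second one. Group means were fitted with lmFit and eBayes over all 48 arrays, tests were two-sided, and p-values were adjusted by Benjamini-Hochberg over all genes in each comparison, with 0.05 as the threshold. "At least" folds set the brighter group's mean against the dim group's raised to the detection limit. That limit was the lowest level, on each array, of any probe detected at p under 0.05. No probe's level was set against another's. The number of arrays limits the precision, and separate hearts are the replicates. In the simulated data with 9811 genes a small set of genes was changed, far fewer than passed for I/R in the real data. The mean I/R test recovered 97% of changes of 0.5 log2, and 4.37% of its calls were false. For dependence on age only 48-week I/R hearts were changed. That test recovered 29% of changes of 0.5 log2 and 88% of changes of 1 log2, and 8.59% of its calls were false. Recovery under changes as widespread as those with I/R was not tested. No pair of arrays had identical signals.

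Alternatives were median centring over detected or over all probes, no background correction, offset 50, the authors' values, a stricter filter or none, array weights, the RNA integrity number as a covariate, a replicate block, fits of only the groups compared, single probes, second probes, and leaving out each heart, or the 16-week I/R hearts of lowest integrity number. The members and all lists were chosen with earlier results of these data known. Members named with values were the 6 with the smallest p across ages in normoxic hearts, the 10 largest mean I/R differences each way, those with a second probe, the 8 with the smallest p for dependence on age, the 4 largest differences each way between 48 and 8 weeks in I/R hearts, and up to 4 genes of each other list with the smallest p for the mean I/R difference. Other members' values complete the account of each role. The series' design text speaks of tissue before and after ischaemia, while the protocol gives matched normoxic perfusion, which is used here.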

Additional observations from a re-analysis of the deposited data

Results flagged for a closer look

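The I/R difference varied with age, by a direct limma test of the difference, in 21 members. The adjusted p (Benjamini-Hochberg over all genes) was 3.21e-08 for Ldha, 4.0e-08 for Pdk2, 1.9e-07 for Phkb, 7.49e-07 for Pkm, 2.31e-05 for Got2, 3.29e-05 for Pygb, 3.4e-05 for Txnip, 4.69e-05 for Phka1 and 5.02e-05 for Aldoa. It was 0.000266 for Tpi1, 0.000364 for Pdha1, 0.000499 for Slc2a1, 0.000907 for Hk1, 0.00311 for Pgam2, 0.00356 for Pdhb, 0.00388 for Pfkl and 0.00459 for Hk2. It was 0.00913 for Pgm1, 0.0127 for Pfkfb2, 0.0132 for Pdk1 and 0.0261 for Pdp1. In the 7 of these with a second probe (Got2, Hk1, Pdhb, Pdp1, Pfkfb2, Phka1 and Tpi1) that probe did not pass, while a dimmer further probe of Hk1 did (adjusted p = 0.000196). On its brightest probe Hk1 went from -0.45 and -0.35 at 8 and 16 weeks to -1.01 and -0.78 at 32 and 48 weeks, and Pdha1 from -0.51 and -0.49 to -0.97 and -0.85. Pgm1 went the other way, from -0.65 and -0.69 to -0.42 and -0.33.

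Single hearts stood apart from the other 5 of their group in 19 of 328 groups of 6 values, where chance gives about 1 in 20. High normoxic hearts were replicate 1 at 32 weeks for Hk1 (log2 level 12.30), replicate 2 at 8 weeks for Pfkm (14.29), replicate 6 at 48 weeks for Pfkfb2 (10.13), replicate 6 at 32 weeks for Pfkfb3 (8.76), replicate 6 at 16 weeks for Pdha1 (14.04) and for Mdh1 (10.55), replicate 1 at 8 weeks for Pdk2 (10.66) and replicate 6 at 8 weeks for Gys1 (10.02). Low normoxic hearts were replicate 3 at 48 weeks for Gapdh (15.41), replicate 2 at 8 weeks for Ugp2 (10.29), replicate 6 at 48 weeks for Got2 (13.70) and replicate 3 at 8 weeks for Gpd1 (11.09). High I/R hearts were replicate 5 at 8 weeks for Pgam2 (14.28), replicate 6 at 16 weeks for Pgam2 (14.39), and replicate 6 at 32 weeks for Gys1 (9.03) and Gyg (9.88). Low I/R hearts were replicate 5 at 16 weeks for Pfkm (13.90), replicate 1 at 48 weeks for Pdk1 (8.30) and replicate 1 at 16 weeks for Gbe1 (5.55).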

How the results depend on the processing

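Of 193 recomputed counts of members, 175 stayed within 1.5 times the reported count. With the RNA integrity number as a covariate 17 members passed for I/R at 16 weeks, beside 43.4% of all genes. Across ages in normoxic hearts the count was 0 with centring on all probes and 2 with the authors' values, array weights or only the groups compared. In normoxic hearts of 32 weeks it was 3 with the authors' values, 2 when arrays were weighted and 1 without background correction, and in those of 48 weeks 1 in each of these. From 32 to 48 weeks in I/R hearts it was 0 with centring on all probes, array weights or only the groups compared, 1 with an offset of 50 or no filter, and 4 with the authors' values. From 8 to 16 weeks it was 1 without the 2 hearts of lowest integrity number. Fitting only the groups compared gives no separate fit for the mean I/R difference or its dependence on age.

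Leaving out 1 heart at a time gave 0 to 0 members at 16 and at 32 weeks in normoxic hearts, 0 to 1 at 48 weeks (1 without replicate 5 of I/R at 16 weeks) and 1 to 1 across ages. It gave 33 to 35 for the mean I/R difference, 26 to 28, 22 to 26, 32 to 34 and 29 to 31 at 8, 16, 32 and 48 weeks, and 20 to 23 for dependence on age. In I/R hearts it gave 22 to 27 for 48 against 8 weeks, 27 to 31 for any age and 25 to 29 from 16 to 32 weeks. From 8 to 16 weeks it gave 0 to 1 (1 without replicate 2 at 8 weeks or replicate 3 or 6 at 16 weeks). From 32 to 48 weeks it gave 0 to 3: 0 without replicate 5 or 6 at 32 weeks or 5 at 48 weeks, and 1 without replicate 3 at 32 weeks or 1, 2, 3, 4 or 6 at 48 weeks.

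The sign of the mean I/R difference turned under centring on all probes for Gpd1 (-0.39), Gpd2 (-0.42), Gyg (-0.20), Pfkl (-0.34), Pgam2 (-0.19), Phka1 (-0.041), Pygm (-0.27) and Tpi1 (-0.42). It turned on the second probe for Dld (2.65), Gapdh (0.093), Ldhb (0.36), Pdhb (0.32), Pdp1 (0.36) and Tpi1 (-0.41), as did that of Phka1 for 48 against 8 weeks in I/R hearts (0.14). Pfkm, near 0, had 0.017 with median centring, 0.00313 with array weights and -0.015 to 0.00979 without 1 heart. The cause was not tested. Pfkfb3 passed across ages in normoxic hearts with the authors' values (adjusted p = 0.0352), array weights (0.0277) or only the groups compared (0.0464). Median centring over detected probes moved the median of all genes by 0.0698 for the mean I/R difference.

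Replicate numbers are not said to pair hearts, and deviations of hearts with one number correlated from -0.21 to 0.21 (over 0.1 in 12 of 168 pairs). With the replicate number as a block 33 members passed for the mean I/R difference (10 higher, 23 lower), 25 at 16 weeks, 29 at 48 weeks, 25 for 48 against 8 weeks and 28 from 16 to 32 weeks in I/R hearts. In the same order 78.9%, 54.1%, 63.2%, 39.5% and 36.7% of all genes passed. The remaining counts with the block equalled those reported.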
